A study of Mus musculus with 6 samples.

Results

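The MYC, MAX and MXD network comprises 10 genes here, Myc, Mycn, Mycl, Max, Mxd1, Mxd3, Mxd4, Mxi1, Mnt and Mlx, each taken as the row of the deposited table that carries its symbol. All 10 were found among the 21684 genes of the table. Expression was measured by RNA sequencing in bone marrow-derived haematopoietic cells of the mouse, 3 libraries transduced with RUNX1-RARA and 3 with an empty vector. RUNX1-RARA joins RUNX1, a transcription factor of blood formation, to the retinoic acid receptor RARA, and was reported by the submitters as a fusion of variant acute promyelocytic leukaemia. Cells of both groups had been transduced, and the labels give for the first group overexpression of the fusion and for the second an empty vector. The labels say nothing of strain, age, vector type or time in culture. They do not tell whether replicates were separate mice or cultures either, so the p-values reflect library-to-library spread that could be technical alone.

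MYC family proteins bind DNA as dimers with MAX, at E-box sites, and activate genes of growth and biosynthesis. MXD proteins, MXI1 and MNT compete for the same partner and the same sites and recruit SIN3 corepressor complexes with histone deacetylases, so that the balance of the members is thought to set the output of shared target genes. MLX is a MAX-like protein that pairs with the glucose-sensing proteins MondoA and ChREBP and with some MXD proteins. In myeloid cells, loss of MYC and gain of MXD1 are known to accompany terminal granulocyte differentiation.

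Values were FPKM, fragment counts divided by gene length and library size, so that levels of different genes could be compared, within the limits of the lengths used. The spacing of low values gave rough depths of 26.6 to 40.7 M reads in RUNX1-RARA libraries and 33.2 to 89.5 M reads in empty vector libraries. Values of the tested members rested on about 286 to 51900 reads each. Of 9 genes of haematopoietic cells, 3 were called higher and 6 lower in RUNX1-RARA. Among all tested genes 46.0% were called higher and 31.7% lower, the shares to set beside this count and those of the other cell lists below. The leukocyte antigen gene Ptprc averaged 75.3 FPKM in RUNX1-RARA and 156 FPKM in empty vector libraries (SD 5.63 and 4.40, n = 3 each). The progenitor marker Cd34 averaged 155 and 16.8 FPKM, with a smaller difference for Kit, at 27.1 and 19.2 FPKM, while Mpo averaged 707 and 940 FPKM. Of 10 T and B cell genes in the table, Cd3e, Cd4, Cd8a, Ms4a1 and Pax5 were among those at 0 in every RUNX1-RARA library, and their list summed to 1.02 to 1.56 FPKM there and to 3.43 to 3.78 FPKM with empty vector. Cd3g, which encodes a chain of the T cell receptor complex, went the other way, with 1.246, 0.984 and 0.673 FPKM in RUNX1-RARA libraries against 0, 0.096 and 0 FPKM in empty vector libraries, and supplied most of the list's sum in RUNX1-RARA libraries. The summed level of 14 mature neutrophil genes was 2540 to 3110 FPKM in RUNX1-RARA and 57900 to 65000 FPKM in empty vector libraries. Of 8 mast cell and basophil genes 3 were higher and 3 lower, with Cpa3 at 1860 FPKM in RUNX1-RARA and 554 FPKM in empty vector libraries and Prss34 at 7.21 and 283 FPKM. Of 5 tested erythroid and megakaryocyte genes 3 were higher and 2 lower, with Hbb-bt at 28.3 and 0.875 FPKM. The part of these cells in the members' differences was not tested.

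The core E-box, CACGTG, is the site that the network's own dimers bind. It was sought, with core motifs of RUNX proteins (TGTGGT and TGCGGT) and a retinoic acid receptor half-site (AGGTCA), on both strands of RefSeq promoter windows on GRCm38.p6 that run from 250 bases before to 50 bases after a gene's start. Of the members, 9 had a window in the table, with 11 windows between them. The E-box was found in 4 of these 11 windows, those of Max, Mxd4, Mnt and Mlx. It was found in 7.15% of all 32817 windows and in 10.2% of windows of the genes tested here. These sites are shown with their flanks, 5′ to 3′ on the strand of the gene and with the E-box in capitals, because 4 different kinds of member share them: the common partner, a repressor that rose, a repressor that did not pass the test and the MAX-like factor.
Max, chr12:76962226-76962281, minus strand: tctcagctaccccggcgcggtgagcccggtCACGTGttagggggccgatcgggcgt
Mxd4, chr5:34187904-34187959, minus strand: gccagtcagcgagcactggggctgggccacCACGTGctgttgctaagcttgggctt
Mnt, chr11:74830771-74830826, plus strand: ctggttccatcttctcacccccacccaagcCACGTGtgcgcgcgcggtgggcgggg
Mlx, chr11:101087220-101087275, plus strand: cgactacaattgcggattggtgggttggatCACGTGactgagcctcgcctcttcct
The first E-box base lay 3 bases before the RefSeq start in Max, 219 bases before it in Mxd4, 123 bases before it in Mnt and 40 bases before it in Mlx. The motif letters describe these windows and do not show binding.

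The members with the largest fall and the largest rise, Mxd1 and Mycn, held none of the 3 motifs in their windows. Their sequence upstream of the first annotated start is shown because these promoters belong to the genes that differed most. Both are in lower case throughout, since no motif letters were found in them.
Mxd1, chr6:86669162-86669409, minus strand: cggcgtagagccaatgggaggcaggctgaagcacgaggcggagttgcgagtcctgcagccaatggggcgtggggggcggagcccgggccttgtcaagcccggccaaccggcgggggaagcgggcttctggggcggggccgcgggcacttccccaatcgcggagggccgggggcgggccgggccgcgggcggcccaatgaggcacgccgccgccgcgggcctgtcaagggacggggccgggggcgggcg
Mycn, chr12:12941915-12942086, minus strand: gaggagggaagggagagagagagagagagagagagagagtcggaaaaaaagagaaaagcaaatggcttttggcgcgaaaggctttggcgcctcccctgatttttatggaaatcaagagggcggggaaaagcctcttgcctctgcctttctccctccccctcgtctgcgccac
A RUNX core was found in 2 of the members' 11 windows, 106 bases before the start of Max and 42 bases after a start of Mxi1. It was found in 22.4% of all windows and 21.5% of windows of the tested genes. The retinoic acid receptor half-site was found in 0 of the members' 11 windows, in 16.3% of all windows and in 12.4% of windows of the tested genes. Absence of letters from these windows leaves other regulatory regions undescribed, and Myc had no window to search.

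In RUNX1-RARA cells the activators Myc and Mycn rose, the repressors Mxd1 and Mxi1 fell, and Mxd4 was the 1 repressor called higher as deposited. Of the 9 members that were expressed highly enough to test, 3 were higher and 5 lower in RUNX1-RARA at an adjusted p under 0.05 in limma's moderated linear model, with p-values adjusted over all 10901 tested genes. Across all tested genes 77.7% were called, 46.0% higher and 31.7% lower, so that 8 of 9 members called is near what the whole table showed. Of the called members, 5 differed at least 2-fold on the log2(FPKM + 1) scale, Mycn, Mxd4 and Myc upward and Mxd1 and Mxi1 downward. Among all tested genes 15.8% did so, 6.12% higher and 9.72% lower. Myc and Mxd4 lay at the threshold, with log2 fold changes of 1.01 and 1.03. They fell below it after scaling by the trimmed mean of M values (0.88 and 0.91) and without RUNX1-RARA replicate 1 (both 0.98). The members were chosen with earlier results of these data known. RUNX1-RARA and empty vector libraries did not overlap for the 8 called members, as for 79.1% of all tested genes. All 9 were at 1 FPKM or more in each of the 6 libraries, so none was tested through 1 group alone.

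**Figure D1:**
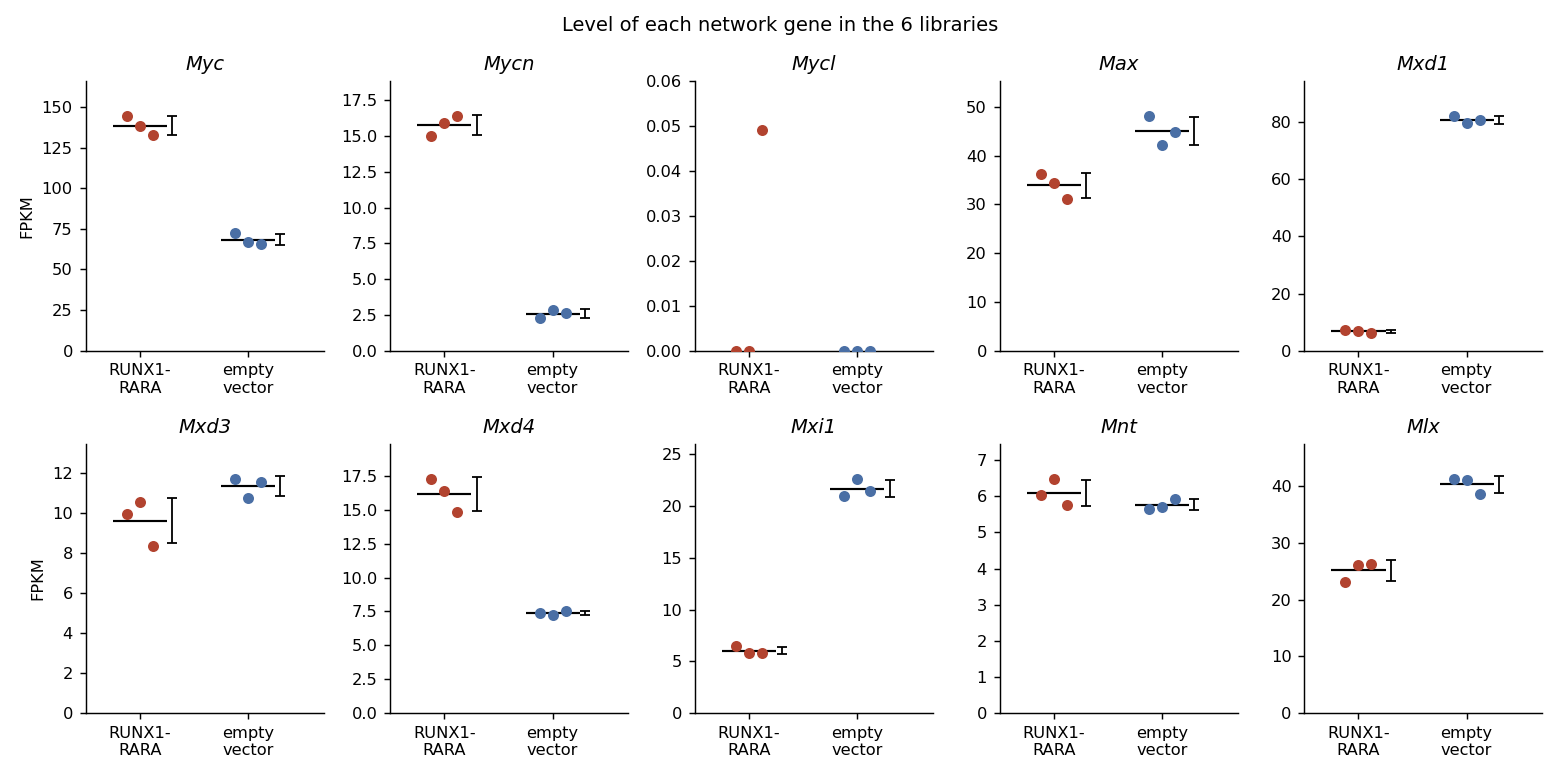
FPKM of each member (vertical axes, each from 0) in the 3 RUNX1-RARA and 3 empty vector libraries (points), with the group mean (line) and SD (bar), except for Mycl, for which only the values are drawn. Myc, Mycn and Mxd4 stand higher in every RUNX1-RARA library, Mxd1, Mxi1, Max and Mlx lower in every one, and the groups of Mnt overlap.

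Among the activators, Myc (ENSMUSG00000022346, chromosome 15, 61985391 to 61990374, plus strand, on mm10), the broadly expressed member that drives growth of progenitor cells, was the most abundant gene of the network in RUNX1-RARA cells. It had 144, 138 and 133 FPKM in RUNX1-RARA replicates 1, 2 and 3, against 72.3, 66.8 and 65.8 FPKM in empty vector replicates 1, 2 and 3. Every RUNX1-RARA library was therefore above every empty vector library, and the spread within each group was small beside the gap. Myc rose 2.03-fold, to 138 ± 5.76 FPKM in RUNX1-RARA against 68.3 ± 3.52 FPKM with empty vector (SD, n = 3 each), or 1.01 on the log2(FPKM + 1) scale with an SE of 0.0596 (adjusted p = 1.01e-07 in limma). Among tested genes its level stood at percentile 96.9 in RUNX1-RARA and at percentile 92.4 in empty vector cells.

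Mycn (ENSMUSG00000037169, chromosome 12, 12936093 to 12941914, minus strand), the paralogue best known from neural tissue and also expressed in blood stem and progenitor cells, rose by the larger factor. It had 15.0, 15.9 and 16.4 FPKM in the 3 RUNX1-RARA libraries, against 2.27, 2.87 and 2.61 FPKM in the 3 empty vector libraries. The groups were far apart and each was tight. Mycn rose 6.10-fold, to 15.8 ± 0.697 against 2.58 ± 0.299 FPKM (SD, n = 3 each), or 2.23 on the log2(FPKM + 1) scale with an SE of 0.072 (adjusted p = 9.25e-10 in limma), which was rank 69 among the genes with a positive fold change. Its level stood at percentile 64.0 of the tested genes in RUNX1-RARA cells and at percentile 16.7 in empty vector cells. Even so it made up 9.42% to 11.0% of the summed activator FPKM in RUNX1-RARA libraries and 3.05% to 4.12% in empty vector libraries, and Myc supplied nearly all of the rest. Mycl, the remaining paralogue (ENSMUSG00000028654), was listed at 0 in 5 libraries and at 0.049 FPKM in RUNX1-RARA replicate 3, about 8.06 reads, and was not tested.

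Max (ENSMUSG00000059436, chromosome 12, 76937269 to 76962201, minus strand), the partner that activators and repressors share, had 36.2, 34.4 and 31.2 FPKM in RUNX1-RARA libraries, against 48.1, 42.2 and 44.8 FPKM with empty vector. The groups were apart, by a margin of about the spread within each group. Max fell 1.33-fold, to 33.9 ± 2.54 against 45.0 ± 2.94 FPKM (SD, n = 3 each), or -0.40 on the log2(FPKM + 1) scale with an SE of 0.0697 (adjusted p = 3.94e-04 in limma). Summed activator FPKM were 4.40, 4.48 and 4.79 times the level of Max in the RUNX1-RARA libraries and 1.55, 1.65 and 1.53 times it in the empty vector libraries. Summed repressor FPKM were 1.30 to 1.34 times Max in RUNX1-RARA libraries and 2.66 to 2.98 times Max in empty vector libraries.

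Of the repressors, Mxd1 (ENSMUSG00000001156, chromosome 6, 86647042 to 86669161, minus strand), the MXD protein that accumulates in maturing granulocytes, changed most. It had 7.31, 6.75 and 6.23 FPKM in RUNX1-RARA libraries, against 82.0, 79.5 and 80.7 FPKM in empty vector libraries. In the controls it was the most abundant member, above Myc in each library, and with the fusion it stood below Myc, Max, Mlx, Mxd4, Mycn and Mxd3. Mxd1 fell 11.9-fold, to 6.77 ± 0.541 against 80.7 ± 1.27 FPKM (SD, n = 3 each), or -3.40 on the log2(FPKM + 1) scale with an SE of 0.0605 (adjusted p = 1.08e-11 in limma), which was rank 146 of all tested genes by size of change in either direction. Its level stood at percentile 37.9 of tested genes in RUNX1-RARA cells and at percentile 93.8 in empty vector cells. All 14 mature neutrophil genes were lower in RUNX1-RARA beside it, as were 10 of 11 tested monocyte and macrophage genes, against 31.7% of all tested genes. The monocyte and macrophage list summed to 636 to 682 FPKM in RUNX1-RARA libraries against 5560 to 6060 FPKM with empty vector. No mature neutrophil gene was at 0 throughout either group, and the part of these cells in the fall of Mxd1 was not tested. In such bulk libraries fewer cells of a type and less RNA per cell cannot be told apart.

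Mxi1 (ENSMUSG00000025025, chromosome 19, 53310518 to 53375810, plus strand), also known as MXD2, moved the same way as Mxd1. It had 6.48, 5.85 and 5.84 FPKM in RUNX1-RARA libraries, against 20.9, 22.6 and 21.4 FPKM in empty vector libraries. Mxi1 fell 3.57-fold, to 6.06 ± 0.363 against 21.6 ± 0.847 FPKM (SD, n = 3 each), or -1.68 on the log2(FPKM + 1) scale with an SE of 0.0597 (adjusted p = 1.87e-09 in limma). All RUNX1-RARA libraries lay far below all controls.

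Mxd4 (ENSMUSG00000037235, chromosome 5, 34173883 to 34187720, minus strand), which like the other MXD proteins binds MAX and recruits SIN3, moved the opposite way. It had 17.3, 16.4 and 14.8 FPKM in RUNX1-RARA libraries, against 7.36, 7.22 and 7.56 FPKM in empty vector libraries. Mxd4 rose 2.19-fold, to 16.1 ± 1.24 against 7.38 ± 0.173 FPKM (SD, n = 3 each), or 1.03 on the log2(FPKM + 1) scale with an SE of 0.064 (adjusted p = 1.51e-07 in limma). The change was close in size to that of Myc on the log2 scale, with 95% intervals of 0.89 to 1.17 for Mxd4 and 0.88 to 1.14 for Myc. Mxd4 became the most abundant repressor with the fusion, at 35.6% to 36.7% of summed repressor FPKM against 5.74% to 5.95% in empty vector libraries, while Mxd1 made up 14.7% to 15.6% against 63.2% to 64.2%.

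Mxd3, the MXD protein associated with S phase, and Mnt, the widely expressed repressor, differed little. Mxd3 (ENSMUSG00000021485) had 9.94, 10.6 and 8.37 FPKM in RUNX1-RARA libraries, against 11.7, 10.8 and 11.6 FPKM in empty vector libraries. The groups were apart only narrowly, with RUNX1-RARA replicate 2 close to empty vector replicate 2. Mxd3 passed the test at -0.22 on the log2 scale with an SE of 0.0797 (adjusted p = 0.0263 in limma), but this call rested on single libraries and on the scaling. It was lost without empty vector replicate 1 (-0.20, limma adjusted p = 0.0717), without empty vector replicate 3 (-0.21, limma adjusted p = 0.0747) and without RUNX1-RARA replicate 3 (-0.13, limma adjusted p = 0.0669), and the value turned to 0.021 (limma adjusted p = 0.819) when libraries were set to equal sums without mitochondrially encoded genes. Mnt (ENSMUSG00000000282) had 6.03, 6.48 and 5.77 FPKM in RUNX1-RARA libraries, against 5.66, 5.71 and 5.93 FPKM in empty vector libraries, so the groups overlapped. Mnt differed by 0.066 on the log2 scale with an SE of 0.06 (adjusted p = 0.333 in limma) and a 95% interval of -0.068 to 0.20.

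Mlx (ENSMUSG00000017801, chromosome 11, 101087277 to 101092207, plus strand), the partner of MondoA and ChREBP, had 23.0, 26.1 and 26.3 FPKM in RUNX1-RARA libraries, against 41.2, 40.9 and 38.5 FPKM in empty vector libraries. Mlx fell 1.60-fold, to 25.1 ± 1.83 against 40.2 ± 1.45 FPKM (SD, n = 3 each), or -0.66 on the log2(FPKM + 1) scale with an SE of 0.0632 (adjusted p = 4.56e-06 in limma). Exons of Mlx overlap those of Psmc3ip on the opposite strand, which averaged 13.8 FPKM in RUNX1-RARA and 17.5 FPKM in empty vector libraries, and exons of Mxd3 overlap those of Prelid1, which averaged 96.8 and 114 FPKM. Exons of Mxd4 and Mxi1 overlap opposite-strand genes that were not analysed here. Whether the counting used strand is not given in the sources at hand, so reads from such overlaps could not be told apart.

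**Figure D2:**
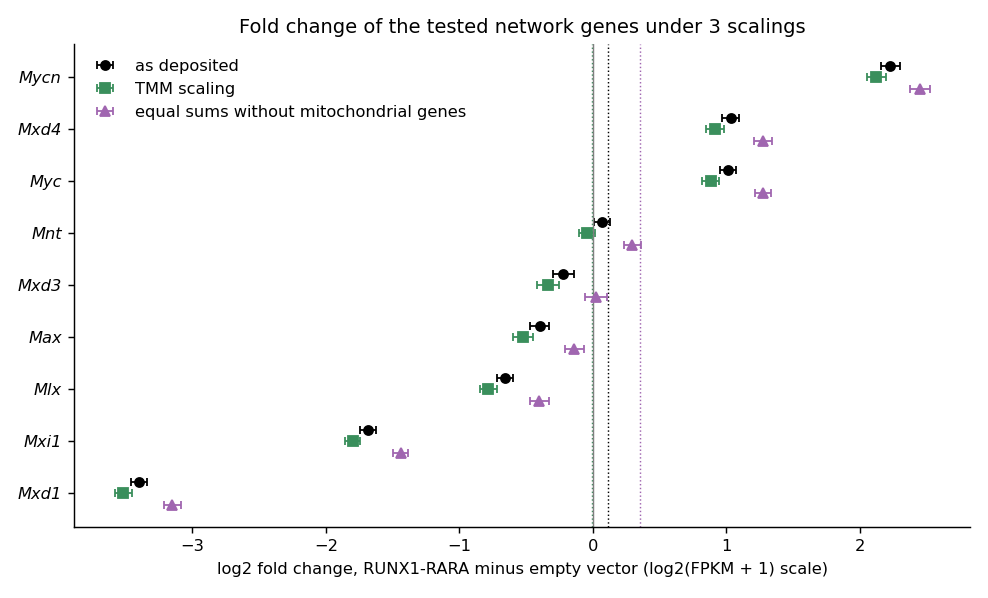
Log2 fold change (horizontal axis, log2(FPKM + 1) scale, RUNX1-RARA minus empty vector, bars are SE) of the 9 tested members under the deposited scaling, TMM scaling and equal sums without mitochondrially encoded genes, with the median of all tested genes under each scaling as a dotted line. Mycn, Mxd4 and Myc stay right of all 3 medians. Mxd1, Mxi1, Mlx, Max, Mxd3 and Mnt stay left of each scaling's median.

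A few abundant genes can shift FPKM of all others. Mitochondrially encoded genes took a larger part of the total in RUNX1-RARA libraries, 89600 to 111000 FPKM against 33100 to 44700 FPKM with empty vector. The 14 mature neutrophil genes took a larger part with empty vector, 57900 to 65000 FPKM against 2540 to 3110 FPKM in RUNX1-RARA libraries. Over the whole set of tested genes the median log2 difference was 0.11 as deposited and -0.005 after scaling by the trimmed mean of M values (TMM). It was 0.35 when libraries were set to equal sums without mitochondrially encoded genes. This last scaling corrects for 1 side only, since the neutrophil genes stay in the sum. Of the called genes, 59.2% were higher as deposited, 49.0% after TMM scaling and 74.7% under the last scaling. Myc kept a log2 fold change of 0.88 after TMM scaling and 1.27 without mitochondrially encoded genes, Mycn 2.12 and 2.45, and Mxd4 0.91 and 1.27. Mxd1 kept -3.52 and -3.15, Mxi1 -1.80 and -1.44, and Mlx -0.78 and -0.40 under the same scalings. Max had -0.52 after TMM scaling but -0.14 without mitochondrially encoded genes, where its call was lost (limma adjusted p = 0.0916). Mnt had -0.043 and 0.29, the second of which was called (limma adjusted p = 0.00141). That 0.29 lay below the median of 0.35 of all tested genes under the same scaling.

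The members exchanged places within the network, while its summed level as deposited was 1.10-fold higher with empty vector. It was 265, 261 and 248 FPKM in RUNX1-RARA and 292, 279 and 279 FPKM in empty vector libraries. Ratios between members of 1 library do not change when all its values are multiplied by 1 factor, whereas the summed level does. Myc made up 53.1% to 54.3% of the sum in RUNX1-RARA libraries and 23.6% to 24.8% in empty vector libraries. Mxd1 made up 2.52% to 2.75% and 28.1% to 28.9%. The order by mean level in RUNX1-RARA cells was Myc, Max, Mlx, Mxd4, Mycn, Mxd3, Mxd1, Mnt, Mxi1 and Mycl, in which the libraries of Mxd4 and Mycn overlapped, as did those of Mxd1 and Mnt and those of Mnt and Mxi1. In empty vector cells it was Mxd1, Myc, Max, Mlx, Mxi1, Mxd3, Mxd4, Mnt, Mycn and Mycl, with no overlap between neighbours.

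Summed FPKM of the activators were 3.39, 3.35 and 3.64 times those of Mxd1, Mxd3, Mxd4, Mxi1 and Mnt in RUNX1-RARA libraries, against 0.584, 0.554 and 0.538 times in empty vector libraries. The activators were thus the larger sum in each RUNX1-RARA library and the smaller in each control. Which sum is larger depends on the gene lengths behind the FPKM, which the sources at hand do not give. In the annotation used here exons cover 2717 bases in Myc and 7072 bases in Mxd1. The mean ratio was 3.46 ± 0.155 with the fusion and 0.559 ± 0.0236 with empty vector (SD, n = 3 each), a 6.19-fold difference, given as a description of transcript levels. Repressors summed to 44.7 ± 3.21 FPKM against 127 ± 1.0 FPKM, and without Mxd1 they summed to 37.9 ± 2.72 against 46.2 ± 0.435 FPKM. Without Mxd1 the ratio was 4.08 ± 0.189 against 1.54 ± 0.0859, a 2.65-fold difference.

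**Figure D3:**
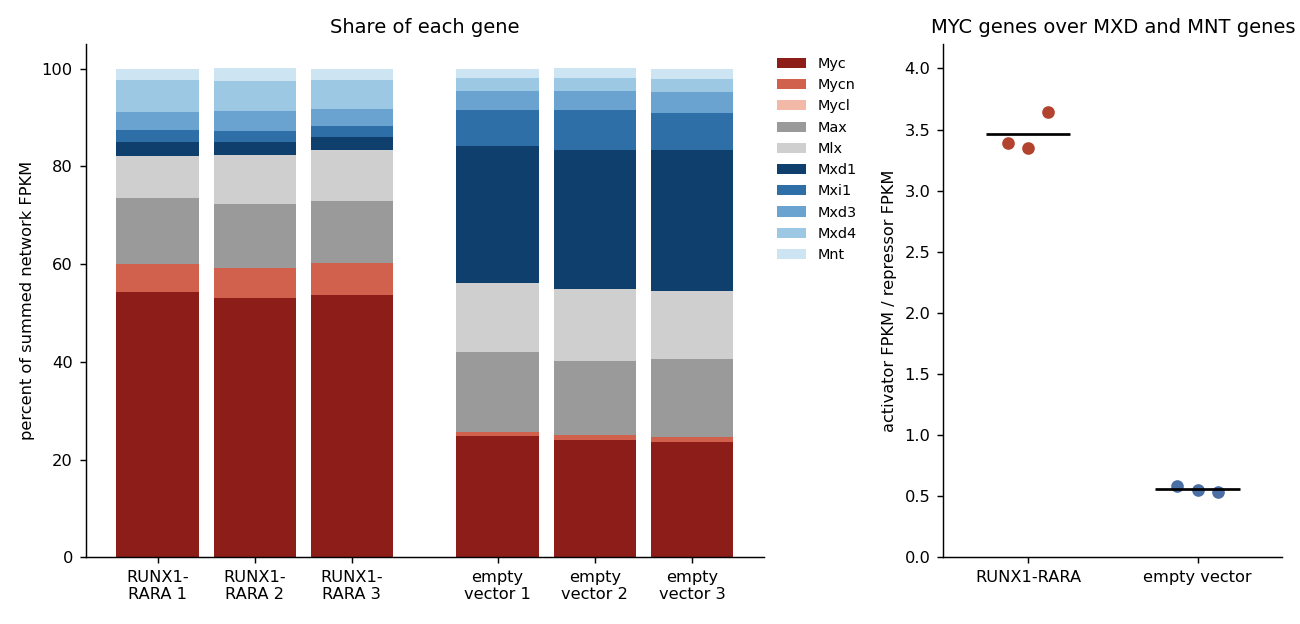
Left, percent of the summed FPKM of the 10 members taken by each gene in each library (stacked bars); right, summed Myc, Mycn and Mycl FPKM divided by summed Mxd1, Mxd3, Mxd4, Mxi1 and Mnt FPKM (points are libraries, lines are means). Myc exceeds 53% in RUNX1-RARA libraries and Mxd1 exceeds 28% in empty vector libraries, and the ratio lies above 3 in the first and below 1 in the second.

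Relative to all tested genes, the levels of the tested members ran from percentile 34.7 (Mxi1) to percentile 96.9 (Myc) in RUNX1-RARA cells and from percentile 16.7 (Mycn) to percentile 93.8 (Mxd1) in empty vector cells, and their changes from near the middle to the tail of the distribution. By size of change Mxd1 was rank 146, Mycn 389, Mxi1 679, Mxd4 1647, Myc 1702, Mlx 3226, Max 5445, Mxd3 7672 and Mnt 9897 of 10901. The rise of Myc thus stood among many of its size, at rank 652 of the genes with a positive fold change. The tested genes most like Myc across the 6 libraries, by the root mean square distance of mean-centred log2(FPKM + 1), were Septin6, Nenf and Stk25, at distances of 0.0323, 0.033 and 0.034. Those most like Mxd1 were Ccl2, Psap and G0s2, at 0.0313, 0.064 and 0.0665. Psap, the lysosomal precursor of the saposins, averaged 53.5 FPKM in RUNX1-RARA and 535 FPKM in empty vector libraries. With 6 libraries in 2 groups this likeness mainly reflects a group difference of the same size.

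**Figure D4:**
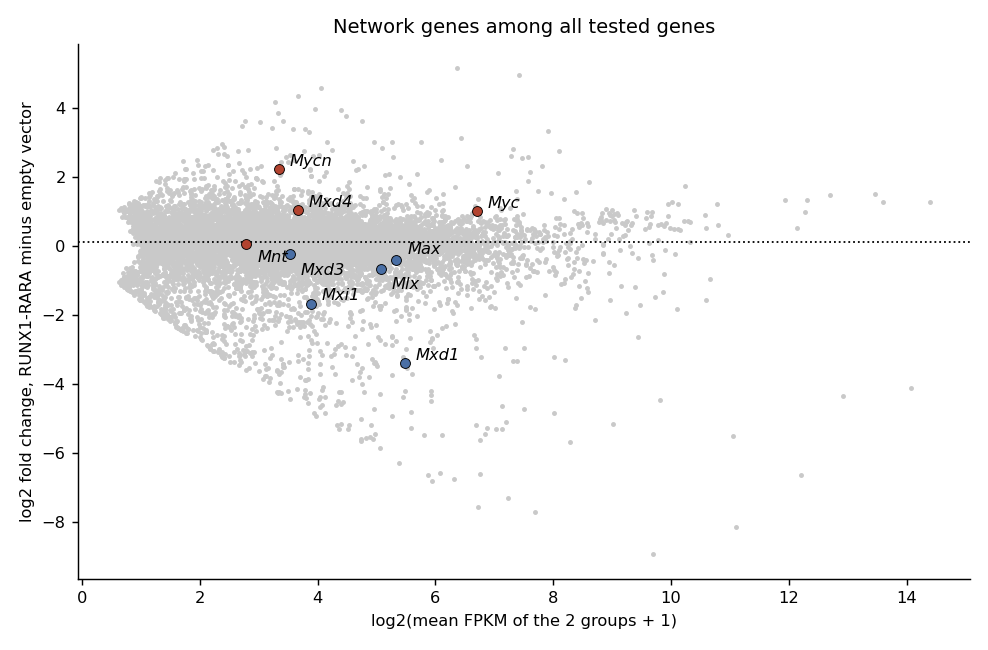
Log2 fold change (vertical axis, RUNX1-RARA minus empty vector) against log2 of the mean FPKM of both groups plus 1 (horizontal axis) for all 10901 tested genes (grey) and the 9 tested members (red above 0, blue below), with the median of all genes dotted. Mxd1 at -3.40 and Mycn at 2.23 lie far from the median of 0.11, and Mnt at 0.066 lies next to it.

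Other dimer partners of the network were looked at in a list of 3. Mga, a large protein that binds MAX and is part of a repressive Polycomb complex, averaged 14.1 ± 0.623 FPKM in RUNX1-RARA and 8.70 FPKM in empty vector libraries and rose by 0.64 on the log2 scale with an SE of 0.0574 (adjusted p = 2.84e-06 in limma). Mlxip, which encodes MondoA, averaged 10.2 and 9.92 FPKM (log2 fold change 0.037, limma adjusted p = 0.57, and -0.079 after TMM scaling). Mlxipl, which encodes ChREBP, averaged 0.0283 and 0.105 FPKM and was not tested. Of 4 tested target genes of MLX dimers, 1 was higher and 2 were lower. This 75.0% called is near the 77.7% of all tested genes, 46.0% higher and 31.7% lower. Txnip, an inhibitor of glucose uptake, averaged 125 FPKM in RUNX1-RARA and 88.0 FPKM in empty vector libraries (log2 fold change 0.50, limma adjusted p = 7.91e-06), whereas its relative Arrdc4 averaged 5.96 and 7.48 FPKM (-0.28, limma adjusted p = 0.00324) and the hexokinase gene Hk2 24.0 and 29.2 FPKM (-0.27, limma adjusted p = 7.10e-04). The falls of Arrdc4 and Hk2 were no longer called at equal sums without mitochondrially encoded genes (limma adjusted p = 0.493 and 0.753).

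The SIN3 corepressor genes, whose products MXD and MNT proteins recruit, moved little, with a median log2 fold change of 0.10, beside 0.11 for all tested genes. Of 16 genes, 6 were higher and 3 lower, against 46.0% and 31.7% of all tested genes. Sin3a averaged 25.4 and 23.7 FPKM in RUNX1-RARA and empty vector libraries and Hdac1 93.1 and 94.6 FPKM, and neither was called; both were named for their place in the complex, outside the rule for named genes. Brms1l, which encodes a subunit of the complex (8.40 and 5.07 FPKM), and the histone-binding gene Rbbp7 (116 and 85.7 FPKM) rose by 0.63 and 0.43 on the log2 scale. These counts followed the scaling, with 4 higher and 6 lower after TMM scaling, and 12 higher and 0 lower in limma (0 at an unadjusted p under 0.05) at equal sums without mitochondrially encoded genes. Of 15 MYC cofactor genes, 10 were higher and 0 lower in limma, with 1 lower at an unadjusted p under 0.05, against 46.0% of all tested genes higher and 31.7% lower. Their median log2 fold change was 0.28 as deposited, 0.16 after TMM scaling, which called 2 of them lower, and 0.54 without mitochondrially encoded genes. Kat2a, the acetyltransferase GCN5, averaged 22.8 FPKM in RUNX1-RARA and 11.2 FPKM in empty vector libraries (log2 fold change 0.96), Ruvbl1, an ATPase of chromatin remodelling complexes, 47.2 and 30.1 FPKM (0.63), and Ep400 14.9 and 10.1 FPKM (0.52).

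Of 14 tested genes that set the stability of the MYC protein, 6 were higher and 5 lower, near the shares of all tested genes, 46.0% higher and 31.7% lower. Usp36, a nucleolar deubiquitinase of MYC, averaged 9.15 FPKM in RUNX1-RARA and 3.82 FPKM in empty vector libraries (log2 fold change 1.07, limma adjusted p = 2.18e-07), and Usp28, which removes ubiquitin added by FBXW7, averaged 8.82 and 4.99 FPKM (0.71, limma adjusted p = 2.03e-06). Ppp2r5a, a regulatory subunit of the phosphatase PP2A, which dephosphorylates MYC, averaged 36.7 and 109 FPKM and fell by 1.55 on the log2 scale (limma adjusted p = 1.45e-09). Fbxw7, the gene of the ligase that marks phosphorylated MYC for degradation, averaged 5.43 and 4.95 FPKM and was not called (limma adjusted p = 0.0975); it was also named outside the rule. The number of lower genes was 2 at equal sums without mitochondrially encoded genes and 3 without the filter.

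Of 33 tested genes listed as induced by MYC, 28 were higher and 1 lower in RUNX1-RARA, 84.8% higher against 46.0% of all tested genes, with a median log2 fold change of 0.46. The list summed to 5150 to 5330 FPKM in RUNX1-RARA libraries and 3820 to 4510 FPKM in empty vector libraries. The largest changes were those of Srm, the spermidine synthase gene, Polr1b, a subunit of RNA polymerase I, and Impdh2, of guanine nucleotide synthesis. Srm averaged 82.9 FPKM in RUNX1-RARA and 37.2 FPKM in empty vector libraries (log2 fold change 1.13, SE 0.0864, limma adjusted p = 7.94e-07). Polr1b averaged 14.9 and 6.29 FPKM (log2 fold change 1.12, SE 0.0551, limma adjusted p = 2.40e-08) and Impdh2 143 and 67.6 FPKM (1.07, SE 0.061, limma adjusted p = 7.79e-08) in RUNX1-RARA and empty vector libraries. The lower gene was Cdc25a, the cell cycle phosphatase, named after its value was seen, at 14.8 and 25.0 FPKM. The list median exceeded that of all genes by 0.35 as deposited, by 0.34 after TMM scaling and by 0.36 without mitochondrially encoded genes, with 25 and 31 genes higher under these scalings. Earlier results on these data had shown MYC target genes higher, so this count is no independent support.

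Of 11 tested genes listed as repressed by MYC, 9 were lower and 1 higher, where 31.7% of all tested genes were lower, and the list median was -0.50 on the log2 scale. The median was -0.62 after TMM scaling, with 10 genes lower, and -0.24 at equal sums without mitochondrially encoded genes, with 7 lower. The list was put together from general knowledge, and the evidence for repression by MYC is least sure for Sat1, Hexim1 and Thbs1. Sat1, the polyamine acetyltransferase gene, averaged 56.7 FPKM in RUNX1-RARA and 198 FPKM in empty vector libraries (-1.79, SE 0.0683, limma adjusted p = 3.30e-09), and the stress-response gene Gadd45a fell by 0.999 on the log2 scale (SE 0.0587, limma adjusted p = 9.77e-08). The differentiation-associated gene Ndrg2 averaged 0.902 and 2.61 FPKM (-0.93, SE 0.0792, limma adjusted p = 1.80e-06). The higher gene was Cdkn1a, the cell cycle inhibitor p21, named after its value was seen, at 46.7 and 30.9 FPKM. Mature neutrophil genes fell beside this list as beside Mxd1, and their part in it was not tested.

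**Figure D5:**
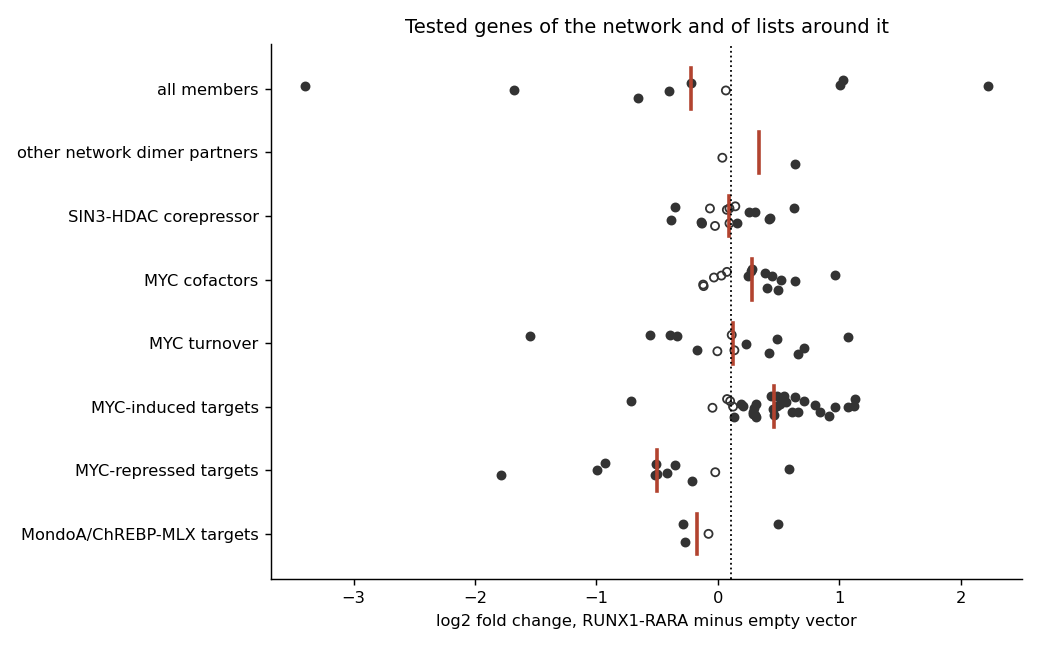
Log2 fold change (horizontal axis, RUNX1-RARA minus empty vector) of the tested genes of the network and of 7 lists around it, filled where called at an adjusted p under 0.05 and open where not, with the list median in red and the median of all tested genes dotted. The MYC-induced list has a median of 0.46 and the MYC-repressed list one of -0.50, while the SIN3-HDAC list lies at 0.10, beside the 0.11 of all genes.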

How the data were processed

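The deposited values were FPKM computed by the authors, with 1 column per library. The submitters' processing notes name HISAT2 2.2.1, fastp 0.22.0, DESeq2 1.32.0 and featureCounts 2.0.1, and the builds mm10 and hg38, with no role for any of them. Genes reaching 1 FPKM in 3 of 6 libraries were fitted with limma 3.58.1 in R 4.3.3, as log2(FPKM + 1) with a group term and trended moderation (Benjamini-Hochberg, 0.05). In 1 simulation with 10901 genes, 100 genes were given log2 changes of 0.5 and 100 genes changes of 1. Of these, 83% and 98% were recovered, and 6.22% of called genes were false, above the nominal 5%. Far more genes were called in the deposited data, 77.7% of those tested, so these shares cannot be carried over to them. Coordinates and exon lengths came from GENCODE M21 (GRCm38, mm10). Low FPKM lay within 0.1 of whole reads for 83.9% to 89.8% of values, too few for a count test, so depths are rough. TMM factors were computed on FPKM without weights. Named genes were all members, short lists in full, up to 3 called genes with the largest change in other lists, and the 3 genes nearest to Myc and to Mxd1. Sin3a, Hdac1, Fbxw7, Cdc25a, Cdkn1a and the cell type markers were named outside this rule, with their values seen. Members and lists were chosen with earlier results of these data known. Phb1 was matched as Phb, and Trac was not analysed here. Single values of some marker genes are not reported here.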

Additional observations from a re-analysis of the deposited data

How the results depend on the processing

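Myc, Mycn, Mxd1, Mxd4, Mxi1 and Mlx kept their direction and call under all 16 alternatives (pseudocounts, filters, scalings, moderation, replicate block, each library left out), with limma adjusted p of at most 0.00107. Without mitochondrially encoded genes in the sum, 3 members in place of 5 were lower, Max had -0.14, Mxd3 0.021 and Mnt 0.29. TMM scaling turned Mnt to -0.043. Testing all genes ended the call of Mxd3 (-0.22, limma adjusted p = 0.127). With each library left out in turn, Mxd3 ran from -0.29 to -0.13. Same-numbered libraries did not deviate together (r of 0.0219, -0.375 and -0.0647), and a fit with the replicate block called 4856 genes higher and 3374 lower, against 5012 and 3457. At equal sums without mitochondrially encoded genes, 2 MLX target genes were higher and 0 lower in limma (0 at an unadjusted p under 0.05), Mga and Mlxip were both higher, and 2 MYC-repressed genes were higher. Mlxip turned to -0.079 after TMM scaling. Leaving out empty vector replicate 2 gave 1 lower cofactor gene. Testing all genes unfiltered called 1 cofactor gene and 3 turnover genes lower, and 2 turnover genes were lower without mitochondrially encoded genes. No call of a member changed under the block. The causes were not tested. Mycl rests on reads of 1 library.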
